A study of Mus musculus with 35 samples.

Results

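The cytosolic ribosomal protein genes were followed across mouse induced pluripotent stem (iPS) cell clones, embryonic stem (ES) cells and the primary cells from which the clones were made. Members were chosen by gene symbol alone: every probe of the array whose symbol was Rpl or Rps with a number and the usual letter endings, or Rplp0, Rplp1 or Rplp2. The symbols gave 133 probes for 80 genes among 41174 gene probes, with 49 genes of the large subunit (78 probes) and 31 of the small subunit (55 probes). A single probe represented 41 of these genes and several probes the other 39. The symbols also took in the paralogues Rpl3l, Rpl7l1, Rpl22l1, Rpl36al and Rps27l, whereas ribosomal proteins with other names, such as Fau, Gnb2l1 and Rpsa, fell outside them and are given separately. Of the 133 probes, 126 were well above background on all 35 arrays, 2 (1 probe each of Rps19 and Rps2) on none, and the other 5 on some arrays only; the 131 probes detected on any array were tested.

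The 35 arrays held total RNA labelled with Cy3. The source cells came from adult Nanog-GFP-Puro reporter mice: PαS cells, sorted from bone marrow as CD45-Ter119-PDGFRα+Sca-1+ mesenchymal stem cells; OP cells, the CD45-Ter119-PDGFRα-Sca-1- osteo-progenitors of the same marrow; and tail tip fibroblasts (TTF). Retroviruses carried either 4 factors (4F: Oct3/4, Sox2, Klf4 and c-Myc) or the same set without c-Myc (3F) into each source, and 5 clones of each of the 6 combinations were arrayed, giving 30 clones, numbered here as in 4F-PαS-iPS #1. The ES lines EB-3 and RF 8 had 1 array each, and the primary PαS, OP and TTF cells, cultured before use and given no factors, also had 1 array each. The clones were maintained on mitomycin-treated SNL feeder cells, so that fibroblast RNA on their arrays may include that of the feeder. For the ES cells the paper refers to earlier work and names no feeder. In RNA from such bulk cultures fewer cells of a type and less RNA per cell cannot be told apart.

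Ribosomal proteins assemble with ribosomal RNA into the subunits that decode mRNA (small) and join amino acids (large). Their mRNAs are among the most abundant of a growing cell, and most begin with a C followed by a run of pyrimidines, the TOP element, through which mTOR signalling sets their translation together. c-Myc is known to drive transcription of genes for ribosomal proteins and ribosome assembly, which makes the 3F and 4F clones a comparison of interest for this family. A few members have paralogues with restricted expression; Rpl3l, for instance, is known from heart and skeletal muscle.

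Pyrimidine runs lie at the start sites of many, but not all, of these genes. Each window below runs from 10 bases before to 20 bases from the RefSeq start (GRCm38.p6), on the strand of the gene, with its longest run of C and T in capitals; the first 6 genes are shown because they have a pyrimidine run at the start, the last 3 as paralogues whose levels are followed further on, Rpl3l with both of its annotated starts.
Rpl18 (chr7:45718061-45718090, plus strand): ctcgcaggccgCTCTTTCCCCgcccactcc
Rpl15 (chr14:18270967-18270996, minus strand): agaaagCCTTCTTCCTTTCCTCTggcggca
Rpl28 (chr7:4792955-4792984, plus strand): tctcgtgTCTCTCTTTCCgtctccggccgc
Rpl35 (chr2:39005112-39005141, minus strand): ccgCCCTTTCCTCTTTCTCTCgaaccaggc
Rps27 (chr3:90213629-90213658, minus strand): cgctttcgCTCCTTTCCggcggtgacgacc
Rpl27a (chr7:109519185-109519214, plus strand): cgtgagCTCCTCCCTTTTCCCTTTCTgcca
Rpl22l1 (chr3:28805498-28805527, plus strand): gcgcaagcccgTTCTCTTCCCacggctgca
Rpl7l1 (chr17:46782637-46782666, minus strand): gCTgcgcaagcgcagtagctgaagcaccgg
Rpl3l, first start (chr17:24727816-24727845, plus strand): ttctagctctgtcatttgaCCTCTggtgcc
Rpl3l, second start (chr17:24732675-24732704, plus strand): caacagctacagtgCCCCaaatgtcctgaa

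RefSeq held a start for 59 of the 80 genes. The letters CTTTCC, searched on the sense strand within 20 bases of the start, were found in 10 of the 59 (16.9%) and in 621 of 27025 genes overall (2.30%). The 10 were Rpl4, Rpl13a, Rpl15, Rpl18, Rpl28, Rpl35, Rpl35a, Rpl38, Rps10 and Rps27. A run of at least 8 C or T occurred in the same window in 29 of the 59 (49.2%), against 18.4% of all genes, and a CTTTCC inside such a run counts toward both. Among the paralogues Rpl22l1 and Rps27l had a run of this length, while Rpl3l, Rpl7l1 and Rpl36al had none.

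Several arrays stood apart in ways that touch the results. The RF 8 array was alone on its slide and in its scan session, while EB-3 shared a slide and session with the 3 primary arrays, and the clones filled 8 other slides in another session. The 18 fibroblast markers summed to log2 levels of 6.77 to 8.73 in the clones, 5.29 in EB-3, 6.70 in RF 8, and 9.93, 10.53 and 8.78 in primary PαS, OP and TTF cells. Of these markers 11 were well above background in EB-3 and all 18 in RF 8. EB-3 held Vim at 4.80 and Fn1 at 3.12, but Col1a1 at -4.62 against a clone median of 4.07. The 8 pluripotency markers summed to 6.76 to 9.18 in 26 clones, but to 3.47, 4.15 and 3.45 in 4F-OP-iPS #1, #2 and #3 and to 3.52 in 4F-TTF-iPS #1. The 7 blood cell markers summed to 2.60, 4.15 and 8.44 in primary PαS, OP and TTF cells, to 0.61 and 1.5 in the ES lines and to -0.72 to 0.87 in the clones. The TTF array held Ptprc at 4.14 and Cd52 at 6.21, and Lyz2 was at 2.56, 4.13 and 7.68 in the 3 primary arrays.

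Levels are given as log2 of the processed signal relative to the 75th percentile of the same array, so that 0 is the level of that percentile and a difference of 1 is 2-fold. Most members gave very bright probes: taking the brightest probe of each gene, 66 of 80 had a mean signal above the 99th percentile of all gene probes, and the mean levels ran from -3.90 (Rpl3l) and 2.05 (Rpl7l1) through a median of 7.36 to 9.22 (Rps18). Such values order probe signals, not transcript amounts, and no member probe was saturated on any array. The brightest probes were also steady among clones, with a median SD over the 30 clones of 0.212 (0.135 to 1.5) on the log2 scale, against 0.470 for all probes tested. The 53 remaining probes lay a median of 2.67 behind the brightest probe of their gene, and 17 of them lay over 6 behind.

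On each array the median level over the 126 detected member probes was taken as the level of the set. For PαS-iPS clones it was 7.29, 7.10, 6.82, 7.63 and 6.91 with 4F (clones #1 to #5 in order, as in all such lists) and 7.11, 6.92, 7.04, 7.0 and 6.91 with 3F. In 4F-OP-iPS it was 6.96, 7.26, 6.72, 7.02 and 6.75, and in 3F-OP-iPS 6.70, 6.92, 6.93, 7.08 and 6.99. In 4F-TTF-iPS it was 6.96, 6.92, 6.93, 6.78 and 6.65, and in 3F-TTF-iPS 7.17, 7.02, 6.92, 6.98 and 7.08. All 6 groups of clones overlapped; 4F-PαS-iPS #4 was the highest clone and 4F-TTF-iPS #5 the lowest. EB-3, at 7.27, lay in the upper range of the clones, whereas RF 8, at 6.54, lay below all of them. Primary PαS (6.08) and OP (6.57) cells also lay below all clones, and primary TTF cells (6.87) lay within their range. The same median over all 18968 detected probes stayed between 0.07 and 0.23 on every array.

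**Figure D1:**
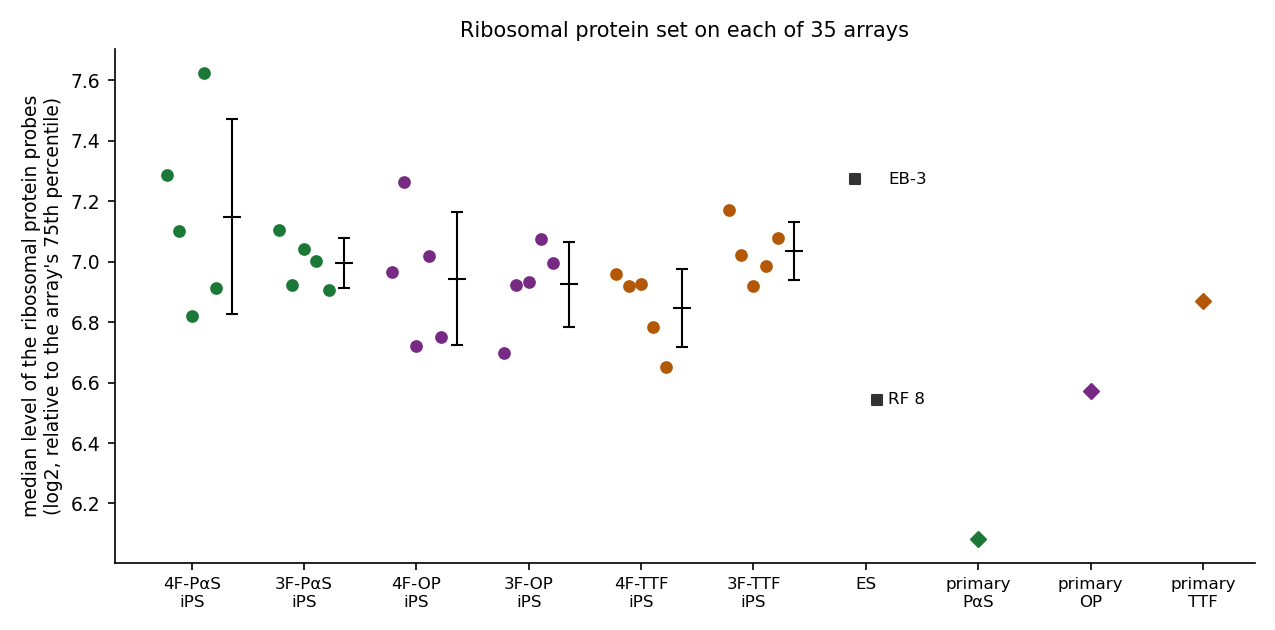
Level of the ribosomal protein set on each of the 35 arrays, as the median over 126 member probes of log2 signal relative to the 75th percentile of the array; points are arrays, arranged by group, and bars beside the clones give the mean and SD of 5 clones. The 30 clones spread from 6.65 to 7.63 with overlapping groups, while RF 8 (6.54), primary OP (6.57) and primary PαS (6.08) lie below them.

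In the primary cells most ribosomal protein transcripts were lower than in the iPS clones. With the 3 primary arrays as a group against the 30 clones, 81 of the 131 member probes fell and 6 rose at an adjusted p under 0.05 (limma with Benjamini-Hochberg adjustment over all probes, as in every comparison below). Of all 28300 probes, 59% were called, 34% lower and 25.1% higher. The median member difference was -0.51 on the log2 scale, against -0.14 for all probes, so the shifts were modest: 6 of the 131 member probes were called at 2-fold or more, against 39.1% of all probes tested. Over the brightest probe of each gene, 34 of 49 large subunit genes and 21 of 31 small subunit genes fell, and 2 genes, both of the large subunit, rose. Of the ribosomal proteins with other names, Gnb2l1, the scaffold RACK1, fell by 0.73, Fau by 0.59 and Rpsa by 0.49.

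Named after their values were seen, Rpl18, Rpl8, Rpl15 and Rps2 illustrate, among brightest probes, differences that are large for their error. Rpl18, a large subunit protein whose start is printed above, had levels of 6.34, 6.79 and 7.27 (lowest, median and highest) over the 30 clones, 7.18 in EB-3 and 6.94 in RF 8, but 5.53, 5.77 and 6.0 in primary PαS, OP and TTF cells. All 3 primary arrays lay under every clone, and the difference was -1.03 (SE 0.142, adjusted p = 4.9e-07). Rpl8, which lies near the peptidyl transferase centre, ran from 7.99 through 8.28 to 8.80 in the clones and was 8.58 and 8.30 in EB-3 and RF 8, against 7.25, 7.37 and 7.68 in the primary cells, a difference of -0.88 (SE 0.127, adjusted p = 1.1e-06). Rpl15 gave 6.86, 7.23 and 7.89 in the clones and 6.22, 6.22 and 6.48 in the primary cells, a difference of -0.93 (SE 0.139, adjusted p = 1.9e-06), but EB-3 (6.79) and RF 8 (6.45) were themselves below every clone. Rps2, a small subunit protein, showed the same arrangement, with 8.45, 8.76 and 9.10 in the clones, 8.17 and 7.39 in the ES lines, and 7.73, 8.06 and 7.92 in the primary cells, and differed by -0.87 (SE 0.131, adjusted p = 2.2e-06). For Rpl18 and Rpl8 the ES lines thus lay among the clones, and for Rpl15 and Rps2 they lay under them.

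By the rule for named genes, the called probes of greatest change were Rpl3l, the dimmer probes of Rpl22l1 and Rpl27a, and, upward, the dimmer probes of Rps6 and Rpl21 and the brightest of Rpl7l1. Among the primary cells Rpl3l was well above background in TTF cells (level -4.50) and not in PαS or OP cells, so the ES arrays exceeded primary PαS at least 23.5-fold and primary OP at least 14.6-fold. The fitted difference from the clones was -2.47 (SE 0.745, adjusted p = 0.0056). The Rpl22l1 probe was not well above background on any primary array, and the 3F-PαS-iPS clones exceeded primary PαS at least 3.19-fold on it. In the fit of all 3 primary arrays against the 30 clones its adjusted p was 8.3e-05. That value is not independent of the filter, which the probe passed through the 3F-PαS-iPS clones and ES arrays, where it was high. The brightest Rpl22l1 probe differed by -0.05 (SE 0.230, adjusted p = 0.86). The dimmer Rps6 probe gave a fitted difference of 1.47 (SE 0.356, adjusted p = 8.3e-04), although the brightest Rps6 probe differed by -0.34 (SE 0.158, adjusted p = 0.068). The direction of the dimmer probe depended on background correction, being -0.18 with normexp. The brightest Rpl7l1 probe rose by 0.80 (SE 0.176, adjusted p = 2.9e-04), from a clone median of 1.92 to 2.76, 2.95 and 2.62, whereas its second probe fell by 0.51 (SE 0.130, adjusted p = 0.0014), from 0.96 to 0.18, 0.53 and 0.70. Rpl27a was called in both directions too, with its brightest probe 0.51 higher (SE 0.205, adjusted p = 0.033) and the other lower by 1.59 on the log2 scale (SE 0.219, adjusted p = 5.3e-07).

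The primary cells also differed from each other, in the order PαS, OP and TTF from lowest to highest. Primary PαS cells were under all 30 clones at 110 of 131 member probes (28.2% of all probes), OP cells at 69 (27%) and TTF cells at 37 (29.3%). Against EB-3, hybridised on the same slide, 129 member probes were lower in PαS cells (59.1% of all probes), 119 in OP cells (54.7%) and 107 in TTF cells (56.5%), with median differences of -1.13, -0.72 and -0.41. Over the brightest probes alone the medians were -1.06, -0.54 and -0.17. The set level minus EB-3 was -1.19, -0.70 and -0.40, and with quantile normalisation it was -0.71, -0.49 and -0.17. Compared with EB-3, 104 of the 131 probes were lower in all 3 primary arrays (44.3% of all probes) and 1 was higher in all 3 (31.2% of all probes). Primary PαS was the lowest of the 3 at 112 probes (39.2% of all), or 74 of the 80 brightest, and the full order PαS, OP, TTF held at 98 (21.6% of all), or 64 of the 80 brightest. The genes whose brightest probe was not lower than EB-3 in all 3 included Rpl22l1 and Rps27l, whose primary levels were 4.51, 5.45 and 6.43, and 5.92, 6.61 and 6.97, both in the same order.

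Each of these cell types had 1 array, so no test separates them, and the clones were on other slides and in another scan session than the primary cells. Without the primary PαS array the 87 calls became 53 (46 lower, median -0.30), and against RF 8 in place of EB-3 all 3 primary arrays were lower at 44 of 131 member probes (43.5% of all). Bright probes of other genes moved likewise: of 82 non-member probes with a mean level above 7, primary PαS, OP and TTF lay under all clones at 70.7%, 58.5% and 42.7%. The 75th percentile signal used for scaling was 970.0 in primary PαS, against 649 and 703 in OP and TTF and 684 in EB-3. Before any scaling the median log2 signal of the set was 16.690 in EB-3 and 16.003, 15.913 and 16.327 in PαS, OP and TTF cells, so that without scaling OP was the lowest. The blood cell marker sums rose in the same order of PαS, OP and TTF, but in PαS and OP cells mostly through Lyz2. The part of the scaling, of these markers and of the fibroblast content in the order of the 3 cell types was not tested.

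**Figure D2:**
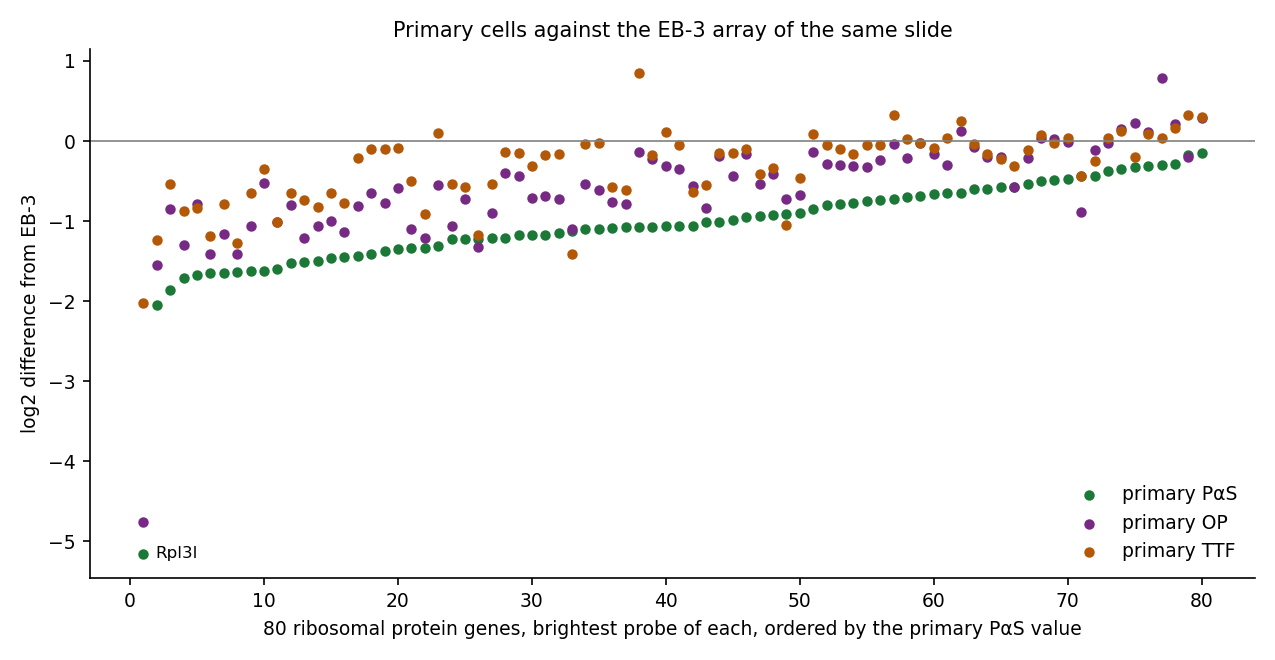
Log2 difference of each primary array from EB-3 (y axis) for the brightest probe of each of the 80 genes (x axis, ordered by the PαS value), with a point for each cell type. All 80 points of PαS cells lie below 0 (median -1.06), as do 71 of the OP cells (median -0.54) and 63 of the TTF cells (median -0.17).

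Between the clones and the ES cells the members moved in both directions. Of 131 probes, 33 were higher and 19 lower in the clones (52.4% of all probes were called, 23.6% higher and 28.8% lower), and the median difference was -0.02, against -0.11 over all probes. Of the 131 member probes 17 were called at 2-fold or more, against 36.2% of all probes tested. The split followed the probe: among brightest probes 30 genes were higher and 5 lower (Rpl7l1, Rpl10a, Rpl24 and Rpl31 among the latter), and among the dimmer probes 3 were higher and 14 lower. Under quantile normalisation the split was 33 higher and 34 lower.

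Higher in every clone than in both ES arrays were the brightest probes of 15 genes, namely Rpl7, Rpl7a, Rpl11, Rpl15, Rpl30, Rpl37a, Rplp1, Rps2, Rps4x, Rps7, Rps12, Rps13, Rps18, Rps20 and Rps27a. Counting all member probes there were 18 (9.99% of all probes). Bright probes of other genes did so at least as often. Of 82 non-member probes with a mean level above 7, 19 (23.2%) lay above both ES arrays in every clone, against 18.8% of the 80 brightest member probes. On the dimmer probe of Rps6, the small subunit protein phosphorylated after growth signals, the fitted difference was 2.75 (SE 0.427, adjusted p = 7.6e-06). That probe was not well above background in either ES array and was in 13 of the 30 clones, so the difference is a bound, at least 1.56-fold higher. It entered this fit only through the 3F-OP-iPS clones, in which it was high, so its adjusted p is not independent of the filter. The dimmer Rps4x probe was 1.14 higher (SE 0.266, adjusted p = 7.9e-04). Named after their values were seen, Rps27a, which encodes ubiquitin fused to a small subunit protein, was 1.12 higher (SE 0.161, adjusted p = 2.7e-06), and Rpl11, known to bind Mdm2 when ribosome assembly is disturbed, was 1.09 higher (SE 0.143, adjusted p = 7.2e-07). Rplp1 and Rplp2, the acidic proteins of the ribosomal stalk, were 0.81 (SE 0.145, adjusted p = 4.6e-05) and 0.47 (SE 0.143, adjusted p = 0.0076) higher. The direction of Rplp2 turned with quantile normalisation (-0.019). Rplp0, on which they are anchored, differed by -0.23 (SE 0.198, adjusted p = 0.34). No brightest probe lay below both ES arrays in every clone, although 8 other member probes did (14.4% of all probes).

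Probes of the same gene disagreed here more than in any other comparison. Of 51 pairs of a dimmer probe with the brightest probe of its gene, 23 differed from ES in the same direction, and in 6 pairs, of Rpl21, Rps12, Rps13, Rps19 and Rps24, both probes were called with opposite signs. Rps12, a small subunit protein, was 0.92 higher in the clones on its brightest probe (SE 0.146, adjusted p = 9.3e-06) and 2.67 lower on the log2 scale on the other (difference -2.67, SE 0.422, adjusted p = 9.1e-06). Rps13 gave 0.86 (SE 0.161, adjusted p = 7.2e-05) and -2.45 (SE 0.371, adjusted p = 5.3e-06), Rpl21 gave 1.44 (SE 0.248, adjusted p = 2.8e-05) and -1.92 (SE 0.277, adjusted p = 2.7e-06), and Rps24 gave 0.42 (SE 0.176, adjusted p = 0.044) and -1.97 (SE 0.409, adjusted p = 2.5e-04). The first 30 bases of the 60-base probes of 4 genes, with the positions that the array design gives them in mm7, show that the probes of a gene lie apart and, for Rps12, Rps24 and Rpl21, differ in base composition.
Rps12 brightest probe (chr10:23538288-23538347, 40% GC): atggcaaagaatctcaggccaaggatgtca
Rps12 other probe (chr10:23539315-23539374, 36.7% GC): tctactgtttgaggtaaagtcaggtgattt
Rps24 brightest probe (chr14:22159843-22161168, across an intron, 45% GC): aacacagactggcaagacatggcctttatg
Rps24 other probe (chr14:22164510-22164569, 41.7% GC): gtcaagagcctgaactgagttgatcaagtc
Rpl21 brightest probe (chr5:145727505-145727564, 75% GC): ggcagccctcgggccttgtaagagcgcgca
Rpl21 other probe (chr5:145731095-145731154, 41.7% GC): gagggttctctagaagtactacctgtctta
Rpl27a brightest probe (chr7:105437513-105437572, 45% GC): caacaggacatcactggttgggaatactgt
Rpl27a other probe (chr7:105435428-105435487, 45% GC): cttagtgtgcttaagtcctcgaagaataac
The dimmer probes of Rps12 and Rps24 were designed on cDNA clones other than the RefSeq transcript. For Rpl21 it was the dimmer probe that was designed on the curated RefSeq transcript, and the brightest on a predicted one. What each probe of a gene detects may thus differ. A further dimmer Rps24 probe, not printed here, was also lower in the clones than in ES cells (-1.57, adjusted p = 0.0043 by limma).

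The ES lines differed from each other across the set. RF 8 was lower than EB-3 at 118 of 131 member probes (47.8% of all) and at 79 of the 80 brightest, with a median difference of -0.65, against 0.06 for all probes. The members were therefore a median of 0.30 lower in the clones than in EB-3 (median difference -0.30) and 0.34 higher than in RF 8. With quantile normalisation the set level of the clones minus EB-3 turned from -0.29 to 0.10, and that minus RF 8 went from 0.44 to 0.16. All 30 clones lay above RF 8 at 63 member probes (18.4% of all probes) and below it at 11 (22.6%), and above EB-3 at 18 (22%) and below it at 31 (25.8%). Leaving out RF 8 gave 40 calls, 11 higher and 29 lower, and leaving out EB-3 gave 54, 45 higher and 9 lower, so the balance of directions depended on the ES line. Bright probes of other genes had the same pattern, with 79 of 82 non-member probes of mean level above 7 lower in RF 8 than in EB-3, and line, slide and scan session cannot be told apart for RF 8.

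**Figure D3:**
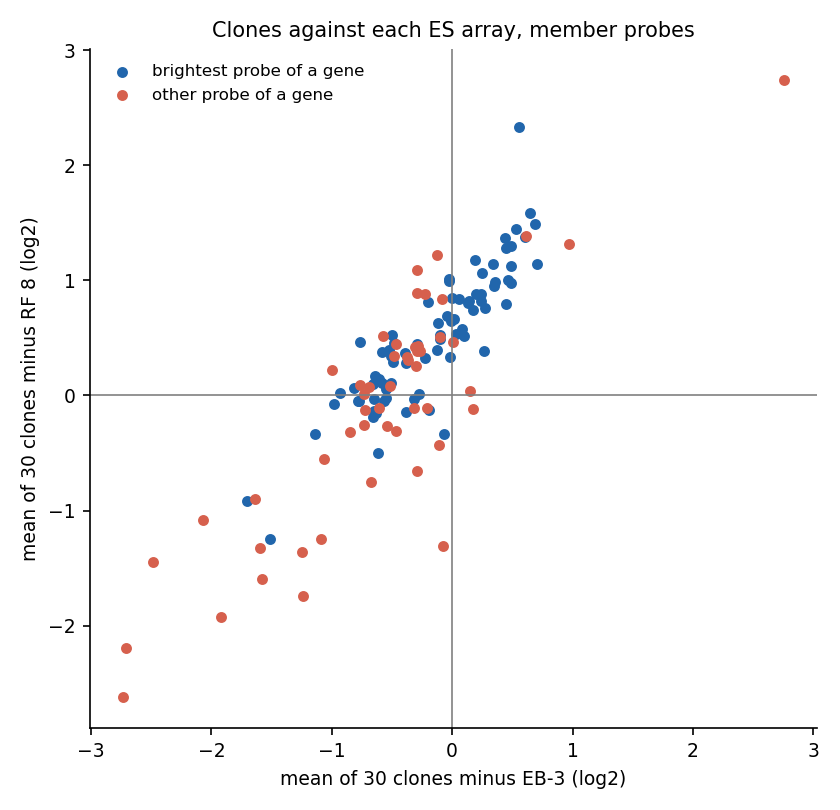
Mean of the 30 clones minus EB-3 (x axis) against the same mean minus RF 8 (y axis), both on the log2 scale, for each member probe, coloured by whether it is the brightest of its gene. Probes sit mostly to the left on the x axis (median -0.30) and upward on the y axis (median 0.34).

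Whether the source of the clones left a mark on the family was asked by comparing 10 clones of each source with 10 of another. No member probe passed the limma threshold between PαS-iPS and OP-iPS clones (0 of 131, with 1 at an unadjusted p under 0.05; 3.69% of all probes were called), between PαS-iPS and TTF-iPS clones (0, with 3 at an unadjusted p under 0.05; 1.3% of all) or between OP-iPS and TTF-iPS clones (0, with 2; 0.029% of all). The median differences were 0.07, 0.07 and -0.00. The smallest p between PαS-iPS and OP-iPS clones was that of Rpl3l, with a fitted difference of 1.46 (SE 0.530, adjusted p = 0.11) that includes 3 OP-iPS clones in which the probe was not well above background. In both comparisons with TTF-iPS clones it was that of the dimmer Rpl21 probe, at -0.47 (SE 0.169) each time, with adjusted p = 0.15 for PαS-iPS and adjusted p = 0.34 for OP-iPS clones. Rpl22l1 was 0.27 above TTF-iPS in both, with SE 0.130 and adjusted p = 0.29 for PαS-iPS and adjusted p = 0.49 for OP-iPS clones. The order seen among the 3 primary cell types was thus not found among their clones at these thresholds.

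The 3F and 4F clones were compared within each source, and the calls in TTF-iPS clones depended on the normalisation. In OP-iPS clones 8 of 131 probes were lower in 3F and 1 higher (8.1% of all probes were called, 3.27% lower and 4.83% higher), in TTF-iPS clones 3 were lower and 1 higher (10.1% of all, 4.36% lower and 5.75% higher), where quantile normalisation gave 6 lower and 23 higher, and in PαS-iPS clones limma called 0, with 12 at an unadjusted p under 0.05 (0.0217% of all). Of the 9 probes called in OP-iPS clones, 3 were the brightest of their gene, those of Rpl14, Rpl22l1 and Rpl27a, and none of the 80 brightest probes was called higher there. The called dimmer probes included those of Rps4x (-0.90, adjusted p = 0.018) and Rpl31 (-0.89, adjusted p = 0.024). The Rps4x probe gave -0.60 in TTF-iPS (adjusted p = 0.094) and 0.49 in PαS-iPS clones (adjusted p = 0.27). In the called probes the 3F and 4F clones did not overlap, but calling by a small p selects for this. Members that were not called, such as the brightest probes of Rps19 and Rpl23 in TTF-iPS clones, did not overlap either. The share of such probes among all probes was not taken.

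Rpl22l1, a paralogue of Rpl22 in the large subunit, had the smallest adjusted p among the brightest probes. Its levels were 6.15, 6.27, 6.12, 5.89 and 5.71 in 4F-OP-iPS clones and 5.58, 4.80, 5.24, 5.24 and 5.06 in 3F-OP-iPS clones, a difference of -0.84 (SE 0.185, adjusted p = 0.0077). In PαS-iPS clones it was 6.36, 5.72, 5.34, 6.50 and 5.56 with 4F and 5.77, 5.37, 5.21, 5.13 and 5.14 with 3F, which overlapped (-0.58, SE 0.185, adjusted p = 0.15). In TTF-iPS clones the values were 5.62, 5.66, 5.54, 5.57 and 5.31 with 4F and 5.15, 5.03, 5.20, 5.04 and 5.25 with 3F, a difference of -0.41 (SE 0.185, adjusted p = 0.16). Every 3F-OP and 3F-TTF clone was thus under every 4F clone of its source, although the difference passed the test in OP-iPS clones and not in TTF-iPS clones. In TTF-iPS clones other members that were not called separated as fully.

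Rpl14, a large subunit protein, gave 3.95, 3.52, 3.32, 2.67 and 3.74 in 4F-OP-iPS and 1.40, 2.40, 1.74, 2.57 and 2.45 in 3F-OP-iPS clones, a difference of -1.33 (SE 0.413, adjusted p = 0.045). Rpl17, also of the large subunit, was the single brightest probe called in TTF-iPS clones and went the other way, with 6.87, 6.77, 6.80, 6.72 and 6.43 in 4F and 7.25, 7.27, 7.15, 7.14 and 7.22 in 3F clones, a rise of 0.49 (SE 0.157, adjusted p = 0.045). Rpl27a, whose brightest probe is printed above, was lower in 3F-OP-iPS clones (-0.86, SE 0.215, adjusted p = 0.016) and gave -0.60 in TTF-iPS (SE 0.215, adjusted p = 0.072) and -0.55 in PαS-iPS clones (SE 0.215, adjusted p = 0.20).

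The dimmer probes of Rpl21, Rps24 and Rps25 were called lower in 3F clones of both OP and TTF origin. The Rpl21 probe gave -0.61, -1.48, -0.83, -1.82 and -1.21 in 4F-OP-iPS and -2.57, -2.27, -2.88, -3.32 and -2.99 in 3F-OP-iPS clones, a difference of -1.62 (SE 0.240, adjusted p = 3.1e-04). In TTF-iPS clones it gave -1.0, -1.30, -1.38, -1.14 and -0.89 with 4F and -1.86, -1.91, -1.78, -2.17 and -1.87 with 3F, a difference of -0.78 (SE 0.240, adjusted p = 0.039). The Rps24 probe differed by -1.29 in OP-iPS (SE 0.354, adjusted p = 0.025) and -1.13 in TTF-iPS clones (SE 0.354, adjusted p = 0.042), and the Rps25 probe by -0.76 (SE 0.225, adjusted p = 0.037) and -0.74 (SE 0.225, adjusted p = 0.036). In PαS-iPS clones, where no member probe was called, the Rps24 probe differed by -1.04 (SE 0.354, adjusted p = 0.16), the Rps25 probe by -0.46 (SE 0.225, adjusted p = 0.29) and the Rpl21 probe by -0.42 (SE 0.240, adjusted p = 0.36). The brightest probes of these 3 genes were not called in either of the other sources. The probe called higher in 3F-OP-iPS clones was the dimmer Rps6 probe, which was well above background in all 5 of those clones (-5.33 to -4.86) but in 2 of 5 4F-OP-iPS clones (-7.60 to -5.76). Its fitted difference of 1.53 (SE 0.370, adjusted p = 0.014) rests on values near background. The probe entered the fit only through the 3F-OP-iPS group, in which it was high, so its call is not independent of the filter.

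**Figure D4:**
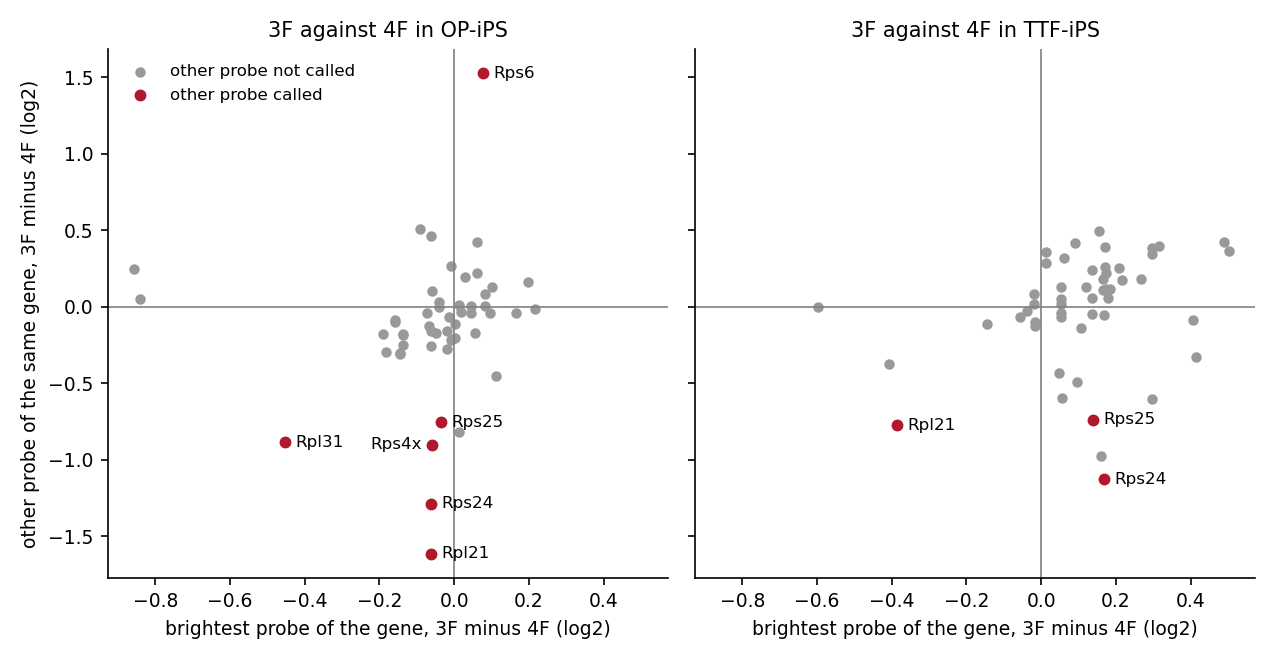
Log2 difference of 3F from 4F clones on each dimmer probe (y axis) against that on the brightest probe of the same gene (x axis), for OP-iPS and TTF-iPS clones; red points are called dimmer probes. The called dimmer probes of Rpl21 (-1.62 in OP-iPS, -0.78 in TTF-iPS) and Rps24 (-1.29 and -1.13) stand away from 0, while the brightest probes of those genes were not called.

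The difference between 3F and 4F did not pass the limma interaction test between sources for any member (0 of 131, with 9 at an unadjusted p under 0.05; 0.532% of all probes were called). Leaving out 1 clone at a time, the OP-iPS count lay between 4, without 4F-OP-iPS #1, and 10, and was 5 without 3F-OP-iPS #4. The TTF-iPS count fell to 0 without any of 6 clones (4F-TTF-iPS #1 and #2 and 3F-TTF-iPS #2 to #5) and the PαS-iPS count rose to 6 without 4F-PαS-iPS #3. Without 4F-OP-iPS #1 and #3 and 4F-TTF-iPS #1, 3 of the clones of low pluripotency marker level, the counts were 2 in OP-iPS (1 lower, 1 higher) and 0 in TTF-iPS clones. The 2 were the dimmer Rpl21 and Rps6 probes, the latter with the limits given above. The OP-iPS calls of Rpl14, Rpl22l1, Rpl27a and the dimmer Rps4x, Rps24, Rps25 and Rpl31 probes were lost. That fit had fewer clones, so a lost call does not by itself mean a smaller difference, and the part of the low-marker clones was not tested. The 3F and 4F clones of a source shared no slide. With slide as a random block the counts were 3 in OP-iPS clones, the dimmer Rpl21 probe and Rpl22l1 among them, and 0 in TTF-iPS clones. The calls of Rpl14, Rpl17 and the dimmer Rps6, Rps24 and Rps25 probes were lost in that fit. In OP-iPS clones 2 of 18 fibroblast markers (median difference 1.32) and 2 of 8 pluripotency markers (median 3.08) were higher in 3F, and the part of these in the member differences was not tested.

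The paralogue Rpl3l was not detected in every clone. It gave -2.85, -2.64, -3.0, -2.66 and -2.79 in 4F-PαS-iPS clones and -2.48 and -2.74 in EB-3 and RF 8, but was not well above background in 4F-OP-iPS #1, #2 and #3 or in 4F-TTF-iPS #1, the 4 clones with the lowest pluripotency marker sums. In 4F-OP-iPS #4 and #5 it was at -2.65 and -3.50, within the range of the 4F-PαS-iPS and 3F clones. Against the mean of the ES arrays those 4 clones were lower at least 10.2-fold, 7.41-fold, 12.0-fold and 6.95-fold. Its partner Rpl3 stayed between 6.92 and 7.81 in all clones.

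Rpl39l and Rps4l, which the symbol rule did not take in because the array lists them under clone names, were read as relatives of Rpl39 and Rps4x. Rpl39l, a paralogue known from testis, gave -8.12 (not well above background), -3.54, -0.05, 2.32 and 1.21 in 4F-OP-iPS clones and 1.65, 1.30, 2.53, 3.50 and 2.39 in 3F-OP-iPS clones, a fitted difference of 3.91 (SE 1.21, adjusted p = 0.044) that includes the clone at background. A second, dimmer Rpl39l probe gave 2.73 (SE 0.918, adjusted p = 0.062). It was also low in 4F-TTF-iPS #1, at -3.26, against 0.63 to 1.47 in the other 4 clones of that group. EB-3 and RF 8 were at 3.80 and 1.90 and primary PαS, OP and TTF cells at 1.26, 3.68 and -0.37, so the level in the primary OP cells was near that of EB-3. Rpl39 stayed between 6.70 and 7.62 in the clones.

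Rps4l, annotated as a transcribed pseudogene related to Rps4x, gave 2.58, 4.73, 3.74, 6.69 and 5.73 in 4F-OP-iPS clones, 5.89 to 7.11 in 4F-PαS-iPS clones, and 7.53 and 6.16 in EB-3 and RF 8. In primary PαS, OP and TTF cells it was at 3.68, 2.93 and 1.79, which is 2.79 under the clones on the log2 scale (difference -2.79, SE 0.475). The order of its levels in the primary cells was the reverse of that of most members. Among the other paralogues, Rps27l, known as a p53 target, ranged from 6.43 to 7.11 and Rpl36al from 4.71 to 5.73 in the clones. Rpl36al was lower in the primary cells by 0.49 (difference -0.49, SE 0.170, adjusted p = 0.015), as was its partner Rpl36a (-0.79, SE 0.151, adjusted p = 5.4e-05).

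**Figure D5:**
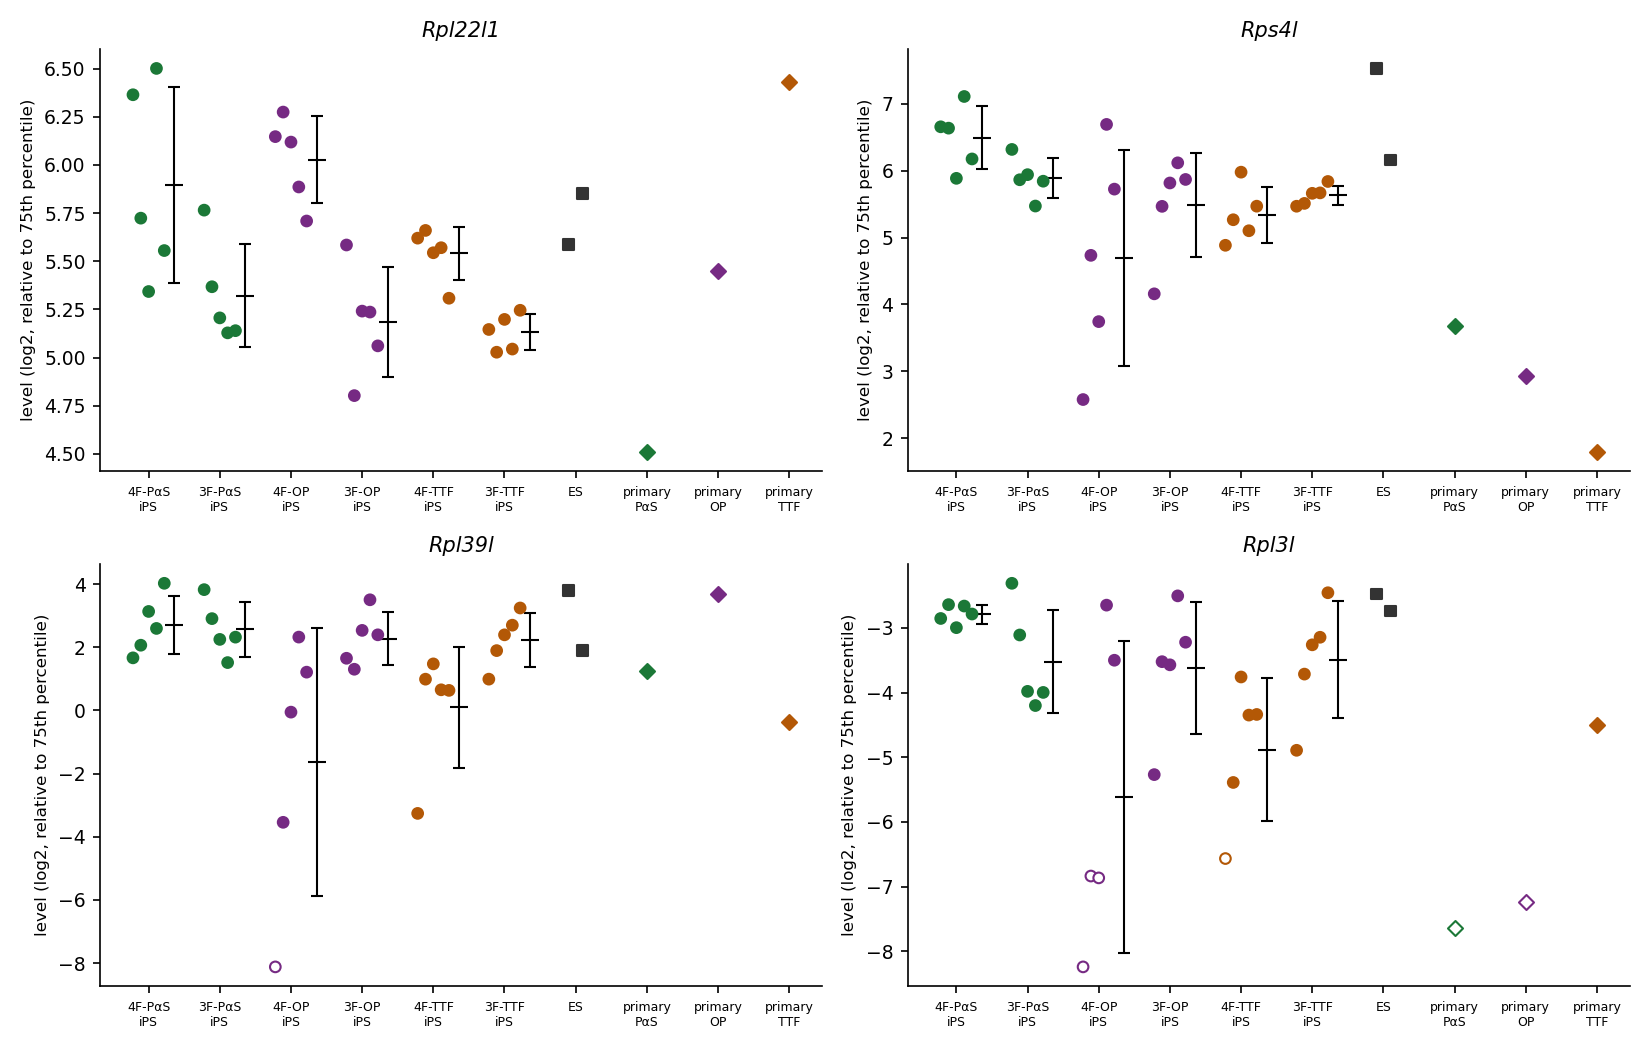
Levels of Rpl3l, Rpl22l1, Rpl39l and Rps4l on each array by group, as log2 signal relative to the 75th percentile of the array; bars beside the clones give the mean and SD of 5 clones, and hollow symbols are arrays on which the probe was not well above background. 4F-OP-iPS #1 to #3 and 4F-TTF-iPS #1 are hollow for Rpl3l, and Rpl22l1 is lower in every 3F-OP and 3F-TTF clone than in the 4F clones of the same source.

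Other genes of ribosome production were taken as lists, by the brightest probe of each gene. In the primary cells 31 of 42 ribosome biogenesis genes were lower than in the clones and 2 higher, with a median of -0.79, wider than the -0.51 of the member probes. Rrp1b and Nolc1, nucleolar proteins, gave -2.65 (SE 0.202, adjusted p = 9.5e-12) and -2.24 (SE 0.180, adjusted p = 2.7e-11). Of all probes 34% were lower and 25.1% higher in this comparison. Of 10 RNA polymerase I genes 4 fell, and of 12 translation factors with TOP mRNAs 6 fell and 1 rose, with Eif4b at -1.28, Pabpc1 at -1.25 and Eef2 at -1.21. The 75 mitochondrial ribosomal proteins moved in both directions, with 23 higher and 20 lower.

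Against the mean of both ES arrays, in a comparison in which 28.8% of all probes were lower and 23.6% higher, most genes of the biogenesis and RNA polymerase I lists were lower in the clones. In the clones 34 of 42 biogenesis genes, 8 of 10 RNA polymerase I genes and 41 of 75 mitochondrial ribosomal proteins were lower, against 2, 0 and 3 higher, with medians of -1.03, -1.0 and -0.46. Values of the lists against each ES line were not taken. The translation factors with TOP mRNAs were mixed, 4 higher (among them Eef2 by 0.79 and Pabpc1 by 0.77) and 2 lower (Nap1l1, -2.21, and Eif3e, -0.78). Fau and Gnb2l1 were higher by 0.65 and 0.61 while Rpsa was lower (-0.55). Between 3F and 4F clones the biogenesis list gave 2 lower in OP-iPS (Nop16, -0.87, and Nob1, -0.51), 1 higher and 1 lower in TTF-iPS, and 0 of 42 in PαS-iPS clones by limma. Over all probes 3.27% were lower in OP-iPS, and 5.75% were higher and 4.36% lower in TTF-iPS clones. No gene of the RNA polymerase I list and none of Fau, Gnb2l1 and Rpsa was called between 3F and 4F clones of any source.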

How the data were processed

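Total RNA of 35 samples was labelled with Cy3 and hybridised to an Agilent mouse array with 60-base probes. The deposited files hold spot intensity values as the authors' scanner software wrote them (Agilent Feature Extraction, in 3 versions per the file headers: 10.5.1.1 for the 30 clones, 10.7.3.1 for 4 arrays and 9.5.3.1 for RF 8), with background already subtracted in the processed signal. The authors also deposited a table of log2 values, centred per probe on the median, in which differences between arrays followed the scanner values; it served as an alternative. Probe positions are those of the array design (mm7).

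Here, log2 of the processed signal minus the 75th percentile of each array was taken, spots of a probe were averaged, and probes not well above background in any group were left out, leaving 27622 probes in the fit of 7 groups (clones and ES) and 28300 in that of 8 groups, where the 3 primary arrays form a group. Group means were fitted with limma 3.58.1 (R 4.3.3), and a probe was called at a Benjamini-Hochberg adjusted p under 0.05 over all probes. Counts and ranges used Python 3.11.15, numpy 2.4.6 and pandas 2.3.3. Groups followed the labels. The 5 clones of a group were treated as replicates, and p-values mostly measure the spread among clones. The 2 ES lines, and the 3 primary cell types, each stood as a group without replicates of a line or cell type. The p-values against them therefore do not measure the spread of repeated ES or primary cultures. Precision is limited by how many arrays there are. On simulated data, 200 probes changed 2-fold were recovered at 64.5% for PαS-iPS against OP-iPS, 52.5% for 3F against 4F in PαS-iPS and 29.5% for clones against ES. The simulation used the spread of all probes tested and changed few of them. The rates therefore do not give the power for the steadier members or for the ES comparison, where many probes differed.

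Named members were, for each comparison, the 3 called with the largest change in each direction (or the 3 of smallest p where fewer than 3 were called), the paralogues, their partners and the stalk genes; Rpl10l had no probe matched here, and members named outside this rule are marked. Lists covered ribosome biogenesis, RNA polymerase I, translation factors, mitochondrial ribosomal proteins and markers of pluripotent cells, fibroblasts and blood. Members and lists were chosen with earlier results of these data known. Alternatives were normexp background correction, quantile normalisation, the deposited table, no filter, a 2-fold minimum, slide and replicate number as blocks, and leaving out arrays; values against each ES array and each primary array against EB-3, counts over the brightest probes and normexp with outlying backgrounds replaced were added after the data were seen. Sequences are from RefSeq (GRCm38.p6) and the array files. Results for some genes are not reported here.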

Additional observations from a re-analysis of the deposited data

Results flagged for a closer look

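Among 204 groups of 5 clones (33 named probes and the level of the set), 9 held a clone whose gap to its nearest neighbour was large for the range of the group; chance alone flags about 1 in 20 such groups. High were the dimmer Rpl22l1 probe in 3F-PαS-iPS (-5.0, next -5.56), Rpl36a in 3F-PαS-iPS (7.35, next 7.26), the dimmer Rpl7l1 probe in 3F-PαS-iPS (1.18, next 0.99), and Rps27 in 4F-OP-iPS (8.52, next 8.01). Rpl3 in 3F-TTF-iPS was high too (7.48, next 7.35). The low ones were the dimmer probes of Rpl27a in 4F-PαS-iPS (-1.76, next -1.04) and Rps13 in 3F-PαS-iPS (-2.52, next -1.30), Rpl39l in 4F-TTF-iPS (-3.26, next 0.63), and the brightest Rpl21 probe in 3F-TTF-iPS (2.25, next 2.69).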

How the results depend on the processing

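Counts of called member probes moved as follows. With normexp, 3F against 4F gave 3 in PαS-iPS, 3 in OP-iPS and 1 in TTF-iPS clones. With slide as a block it gave 3 in OP-iPS and 0 in TTF-iPS, and without 4F-OP-iPS #1 and #3 and 4F-TTF-iPS #1 it gave 2 and 0. A 2-fold minimum left 4 in OP-iPS, 1 in TTF-iPS, 17 for clones against ES and 6 for primary cells against clones. Quantile normalisation gave 29 in TTF-iPS (23 higher, 6 lower) and 1 for the interaction with source, and no filter gave 1 in TTF-iPS. For the level of the set, quantile normalisation reversed clones minus EB-3 from -0.29 to 0.10 and moved clones minus RF 8 from 0.44 to 0.16 and primary PαS, OP and TTF minus EB-3 to -0.71, -0.49 and -0.17. Single probes that reversed were Rplp2 (-0.019) and Rps23 (-0.17) for clones against ES under quantile normalisation, and the dimmer Rps6 probe for primary cells against clones with normexp (-0.18) and with normexp after outlying backgrounds were replaced (-0.085, chosen after seeing the data). The cause was not tested. Of the other values for named probes, 1840 kept direction and call, 154 lost and 6 gained the call.

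Leaving out 1 array at a time gave 0 to 6 calls for 3F against 4F in PαS-iPS, 4 to 10 in OP-iPS and 0 to 3 in TTF-iPS, 0 to 3 for the interaction, 0 to 1 for PαS-iPS against OP-iPS (1 without 4F-OP-iPS #4), 0 for both other source comparisons, 40 to 56 for clones against ES and 53 to 97 for primary cells against clones. Clone numbers did not pair the samples: of 75 same-numbered pairs 16 had a correlation of deviations above 0.1. With the replicate number as a block, 3F against 4F gave 9 in OP-iPS, 0 in PαS-iPS and 6 in TTF-iPS, and the source comparisons and the interaction gave 0. Dim probes near background limit Rpl3l, Rpl39l and the dimmer Rps6 and Rpl22l1 probes.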
